A study of Mus musculus with 15 samples.

Results

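The genes described here are the 8 genes Tnfrsf17, Tnfrsf13b, Tnfrsf13c, Cd40, Tnfsf13, Tnfsf13b, Traf2 and Traf3, which encode BCMA, TACI, BAFF-R, CD40, APRIL, BAFF, TRAF2 and TRAF3. They were chosen by name, as the receptors of BAFF and APRIL, the receptor CD40, the ligands BAFF and APRIL, and the adaptors TRAF2 and TRAF3, and all 8 are among the 21669 genes with a symbol in the deposited table. Gene expression was measured by polyA-selected RNA-seq in female C57BL/6J wild-type mouse B cells in 5 groups of 3 libraries each. Naive B cells (nB) were CD43- cells taken without stimulation or drug. The other groups came from such cells kept in culture with Il2, Il5 and LPS and either the vehicle DMSO or GSK343, a small-molecule inhibitor of the histone H3K27 methyltransferase EZH2, and were sorted as activated B cells (actB, B220+GL7+CD138-) or plasmablasts (Pb, CD138+). For Pb with GSK343 the stimulation label reads Il6 where the other cultured groups have Il5, although the treatment protocol names Il5 for all cultures. The comparisons asked how expression differed between the stages of differentiation and between GSK343 and DMSO within actB and Pb. Because nB had no culture, stimulation or DMSO, these factors and the stage cannot be told apart in any comparison with nB.

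BAFF and APRIL are TNF family ligands that sustain B lineage cells, and they share receptors with different ligand preferences. BAFF-R binds BAFF and is known for the survival of mature naive B cells, BCMA is known for the survival of long-lived plasma cells, and TACI binds both ligands. CD40 receives the CD40 ligand signal of helper T cells. TRAF2 and TRAF3 form, with cIAP proteins, the complex that keeps the kinase NIK low until BAFF-R or CD40 is engaged, after which the alternative NF-κB pathway proceeds.

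The promoters of the BAFF and APRIL receptors are shown first, because these genes share ligands and yet had different levels from nB to Pb. The 250 bases before each annotated start are from RefSeq (GRCm38.p6, a later build than the mm9 coordinates below), in the direction of the gene. They lie at chr16:11313559-11313808 (plus strand) for Tnfrsf17, chr11:61126505-61126754 (plus strand) for Tnfrsf13b and chr15:82224381-82224630 (minus strand) for Tnfrsf13c. Capitals mark matches to the letters searched.
Tnfrsf17: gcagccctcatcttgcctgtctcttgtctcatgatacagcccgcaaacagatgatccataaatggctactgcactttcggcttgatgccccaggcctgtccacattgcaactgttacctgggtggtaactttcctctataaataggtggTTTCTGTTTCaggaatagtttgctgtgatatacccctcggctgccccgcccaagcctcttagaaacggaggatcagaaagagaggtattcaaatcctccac
Tnfrsf13b: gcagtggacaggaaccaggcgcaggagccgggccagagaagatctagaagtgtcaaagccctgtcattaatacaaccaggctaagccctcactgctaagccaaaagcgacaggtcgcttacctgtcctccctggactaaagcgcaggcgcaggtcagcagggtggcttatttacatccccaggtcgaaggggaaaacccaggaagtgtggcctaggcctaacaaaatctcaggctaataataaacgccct
Tnfrsf13c: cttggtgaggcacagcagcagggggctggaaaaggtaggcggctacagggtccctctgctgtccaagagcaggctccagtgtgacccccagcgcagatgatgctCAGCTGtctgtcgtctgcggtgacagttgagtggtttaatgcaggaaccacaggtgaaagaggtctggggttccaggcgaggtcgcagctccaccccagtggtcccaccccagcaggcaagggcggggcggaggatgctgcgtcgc
The letters searched on both strands were GGG and TTTCC parted by any 2 bases (κB), GGAA and GAAA parted by any 2 bases (EICE), GAAA and GAAA parted by any 2 bases (ISRE), TGANTCA (AP1), ATGCAAAT (octamer) and CAGCTG (E2A E-box). The Tnfrsf17 promoter held 1 ISRE match on the opposite strand, which began at position -101 from the start, and 2.98% of the 32851 promoter windows in the table held these letters. The Tnfrsf13c promoter held 1 CAGCTG, which began at position -146, and 13% of windows held it. None of the searched letters were in the Tnfrsf13b promoter. These matches are descriptions of letters and not of bound sites.

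Each library held between 19421830 and 26307413 reads counted to genes, so 3 reads corresponded to 0.114 to 0.154 RPM (reads per 1000000 counted reads). Dividing RPM by the length the table gives for a gene, in kb, gave RPKM. nB replicates 1 and 2 differed by less than the sampling noise (chi-square per degree of freedom 0.00958 over 14442 genes, against at least 3.58 in every other pair of one group) and were counted as 1 sample, which left 2 nB samples and 14 libraries in all. Among the cultured libraries, number 2 stood apart in every group, with chi-square per degree of freedom of 7.64 to 29.7 against number 1 or 3, and 3.58 to 6.07 between numbers 1 and 3. Results that changed without number 2 are given both ways. The B cell markers Ms4a1, Cd79a, Cd22 and Pax5 were all at or above 1 RPKM in every group, and the plasma cell markers summed to 3065 to 3215 RPKM in Pb with DMSO and 485 to 522 RPKM in actB with DMSO. The nB samples also held RNA of other cells: 12 myeloid markers summed to 234 to 303 RPKM, with 11 of 12 at or above 1 RPKM, and 8 T and NK cell markers summed to 28.4 to 30.4 RPKM. In actB with DMSO these sums were 7.92 to 11.1 and 0.186 to 0.665 RPKM. In Pb with DMSO the myeloid sum was 114 to 351 RPKM, of which Ly6c2 alone made 113 to 349 RPKM while S100a8, S100a9 and C1qa were at 0 in every library. The 4 dendritic cell markers were all at or above 1 RPKM in nB and summed to 38.5 to 48.5 RPKM. The nB means were 22.85 RPKM for Itgax, 6.93 RPKM for Siglech and 1.55 RPKM for Zbtb46, against at most 0.230 RPKM in actB with DMSO. Flt3 went the other way, with 12.2 RPKM in nB and 47.2 RPKM in actB with DMSO. How far the RNA of other cells contributed to any nB value was not tested.

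Tests across genes used limma on log2(RPKM + 0.25) over 11299 genes, with Benjamini-Hochberg adjusted p-values and a threshold of 0.05. Fold changes on this scale understate the change of genes near 0. Of the 8 genes, 6 reached 1 RPKM in at least 3 libraries and were tested, with Tnfrsf17 passing through its Pb libraries alone. The ligand genes Tnfsf13 and Tnfsf13b did not reach it. From nB to Pb with DMSO, 2 of the 6 tested genes rose (Tnfrsf17 and Tnfrsf13b) and 4 fell (Tnfrsf13c, Cd40, Traf2 and Traf3), in a comparison in which 80.6% of all tested genes were called, 39.5% higher and 41.1% lower. From nB to actB, 1 rose and 2 fell, where 77.2% of all genes were called, 40.9% higher and 36.3% lower. From actB to Pb, 2 rose and 4 fell, where 69.7% of all genes were called, 27.3% higher and 42.4% lower. These counts include Tnfrsf17, which passed the filter only where it was high. With so many genes called, they say little that is particular to the 6 genes. The median log2 fold change over all genes was -0.02 for Pb against nB, 0.05 for actB against nB and -0.12 for Pb against actB. Scaling the libraries to a common median left each of the 15 called differences in the same direction with an adjusted p of at most 0.0063. In bulk RNA, fewer cells of a type and less RNA per cell cannot be told apart.

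**Figure D1:**
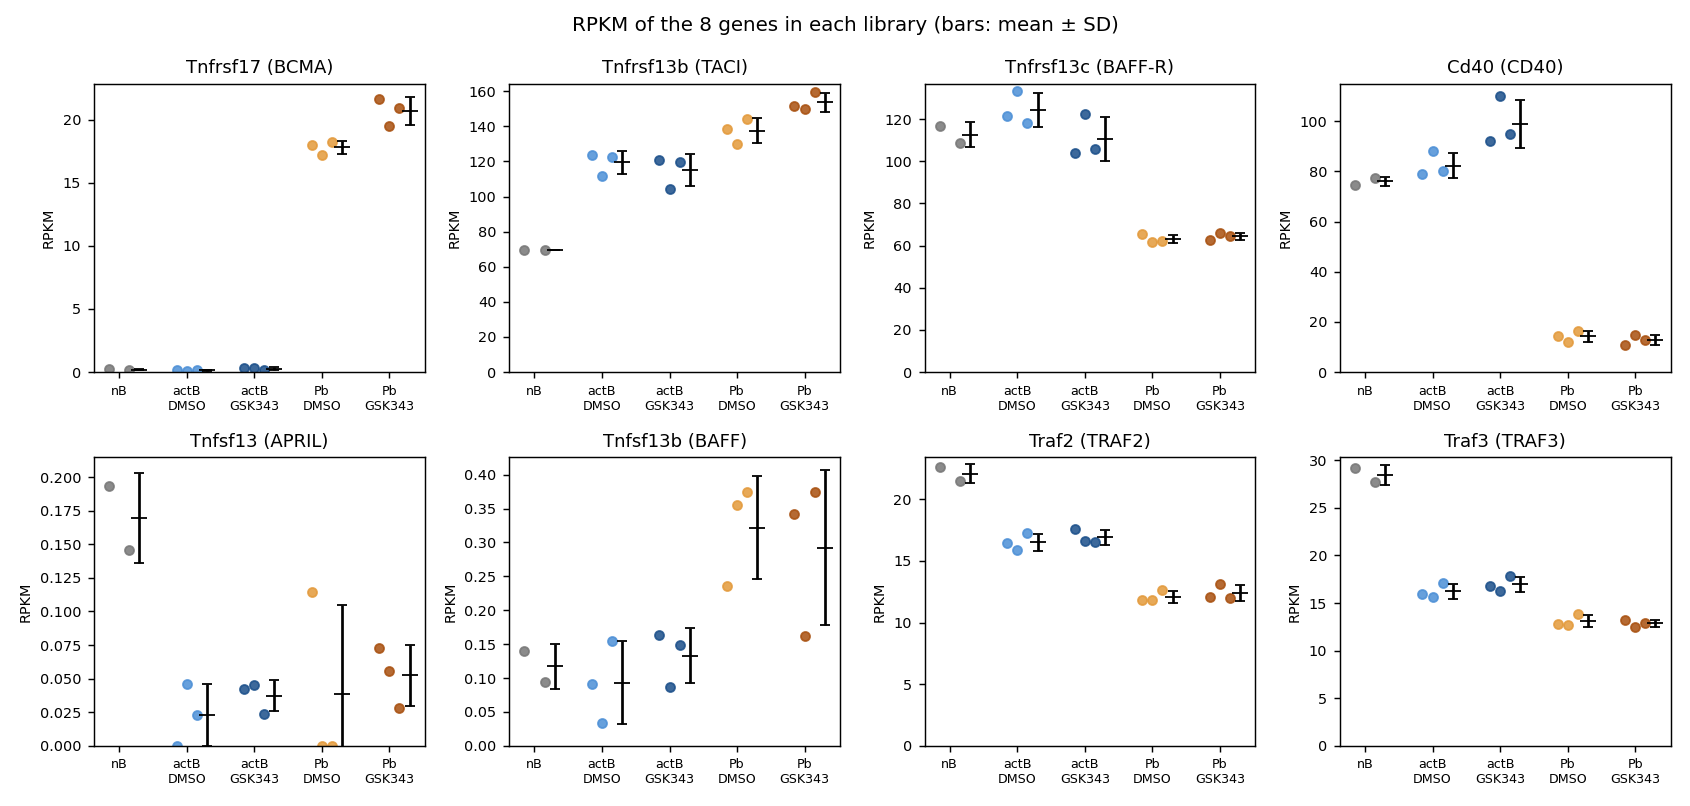
RPKM (linear axes from 0) of the 8 genes in the 14 libraries, by group, with the mean and SD beside the points (lower bars end at 0, and 2 points stand for nB). Tnfrsf17 lies between 17.2 and 18.2 RPKM in Pb with DMSO and below 0.4 RPKM in nB and actB, Cd40 lies between 12.01 and 16.3 RPKM in Pb with DMSO and above 74 RPKM in nB and actB, and the ligand genes stay below 0.4 RPKM throughout.

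Tnfrsf17 (mm9 chromosome 16, 11313905 to 11320167, plus strand) was close to absent before the Pb stage. Its level was 0.214 and 0.161 RPKM in nB, from 4 and 3 reads, and 0.156, 0.102 and 0.153 RPKM in actB with DMSO, from 3, 2 and 3 reads. In Pb with DMSO it was 18.0, 17.2 and 18.2 RPKM, from 284, 286 and 308 reads. Every Pb library was far above every nB and actB library, and nB lay just above actB without overlap. The mean was 17.8 ± 0.524 RPKM in Pb (SD, n = 3), 0.137 ± 0.0303 RPKM in actB (SD, n = 3) and 0.188 ± 0.0374 RPKM in nB (SD, n = 2). By reads, Pb was 130-fold above actB (exact 95% interval 65.8 to 303, counting error only) and 94.9-fold above nB (45.9 to 237). The log2 fold change was 5.55 ± 0.125 (SE) from actB to Pb (limma, adjusted p = 1.07e-11) and 5.37 ± 0.139 from nB to Pb (adjusted p = 2.63e-12). Because Tnfrsf17 passed the filter through Pb, a difference in these comparisons was implied by its being tested, and in the fit without the filter the adjusted p was 1.33e-10 and 2.87e-11. Between nB and actB the difference did not pass (-0.18, adjusted p = 0.258). The sort for Pb used CD138, the product of the plasma cell gene Sdc1. In actB with DMSO, the mean of Tnfrsf17 was 0.77% of its mean in Pb. The same share was 2.24% for Sdc1, 10.6% for Jchain (the joining chain of secreted IgM and IgA), 19.9% for Xbp1, 25.9% for Prdm1 and 29.4% for Irf4. Xbp1, Prdm1 and Irf4 encode transcription factors of antibody-secreting cells. For nB, the share was 1.05% for Tnfrsf17 and as low for Prdm1 (1.01%). It was 2.75% for Jchain, 5.31% for Xbp1, 17.4% for Sdc1 and 32.2% for Irf4.

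Tnfrsf13b (chromosome 11, 60940257 to 60962874, plus strand) was present at every stage and higher in cultured cells. Its level was 69.3 and 69.6 RPKM in nB, then 123.8, 111.7 and 122.7 RPKM in actB with DMSO, and 138.5, 129.9 and 144.3 RPKM in Pb with DMSO. The groups did not overlap and rose in the order nB, actB, Pb. The step from nB to actB was the larger, with a log2 fold change of 0.78 ± 0.071 (SE, adjusted p = 5.76e-07 by limma). The step from actB to Pb was 0.20 ± 0.064 (adjusted p = 0.0127), and it lost the threshold without actB DMSO replicate 2 (0.16, adjusted p = 0.0527) or without Pb DMSO replicate 3 (0.17, adjusted p = 0.0547).

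Tnfrsf13c (chromosome 15, 82052174 to 82054790, minus strand) had a level of 116.8 and 108.6 RPKM in nB, of 121.7, 133.3 and 118.2 RPKM in actB with DMSO, and of 65.3, 61.9 and 62.4 RPKM in Pb with DMSO. Every Pb library was below every nB and actB library, and actB lay just above nB. Pb was lower than actB by a log2 fold change of -0.97 ± 0.066 (SE, limma adjusted p = 5.17e-08) and lower than nB by -0.83 ± 0.074 (adjusted p = 3.05e-07). The difference between actB and nB of 0.14 (95% interval -0.02 to 0.30) did not pass (adjusted p = 0.0997), and it changed sign under quantile normalization (-0.0095).

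Cd40 (chromosome 2, 164881127 to 164898448, plus strand) showed the largest fall among the 6 tested genes. It was at 74.6 and 77.3 RPKM in nB and at 78.8, 88.1 and 80.0 RPKM in actB with DMSO, against 14.3, 12.01 and 16.3 RPKM in Pb with DMSO. The log2 fold change was -2.52 ± 0.120 (SE) from actB to Pb (limma, adjusted p = 2.08e-09) and -2.41 ± 0.134 from nB to Pb (adjusted p = 2.74e-09). Between nB and actB it was 0.11 (95% interval -0.18 to 0.41, adjusted p = 0.450), and -0.04 under quantile normalization. The mean of Cd40 in Pb was 17.2% of that in actB, a share between those of the B cell genes Pax5 (15.1%), a transcription factor of B cell identity, and Ms4a1 (30.7%), which encodes CD20. The same share was 7.98% for Cd22, an inhibitory B cell receptor, 50.8% for Tnfrsf13c and 77.4% for Cd79a, a signalling chain of the B cell receptor.

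The make-up of the receptors of BAFF and APRIL differed between stages. Per library, each gene was expressed as a percent of the summed RPKM of Tnfrsf17, Tnfrsf13b and Tnfrsf13c. Tnfrsf13c made 62.7% and 60.9% of the sum in nB, 49 to 54.4% in actB with DMSO and 27.7 to 29.6% in Pb with DMSO. Tnfrsf13b made 37.2% and 39% in nB, 45.6 to 50.9% in actB and 62.1 to 64.2% in Pb. Tnfrsf17 made 0.0905% and 0.115% in nB, 0.0417 to 0.0637% in actB and 8.11 to 8.24% in Pb. The Tnfrsf13c share fell from stage to stage with every length tried. A length scales a gene equally in all libraries, so this is not a separate check of the fall. Which gene was higher within a stage did depend on the length. The deposited lengths were 812 bases for Tnfrsf17, 998 for Tnfrsf13b and 3685 for Tnfrsf13c, while the exons of the GENCODE vM1 models cover 815, 2836 and 2038 bases. With the GENCODE lengths Tnfrsf13c was the higher gene at each stage, at 89.2% in nB, 84.2% in actB and 63.3% in Pb, and Tnfrsf13b was at 10.7%, 15.8% and 26.8%. The order of Tnfrsf13b and Tnfrsf13c within a stage therefore cannot be stated from these values.

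**Figure D2:**
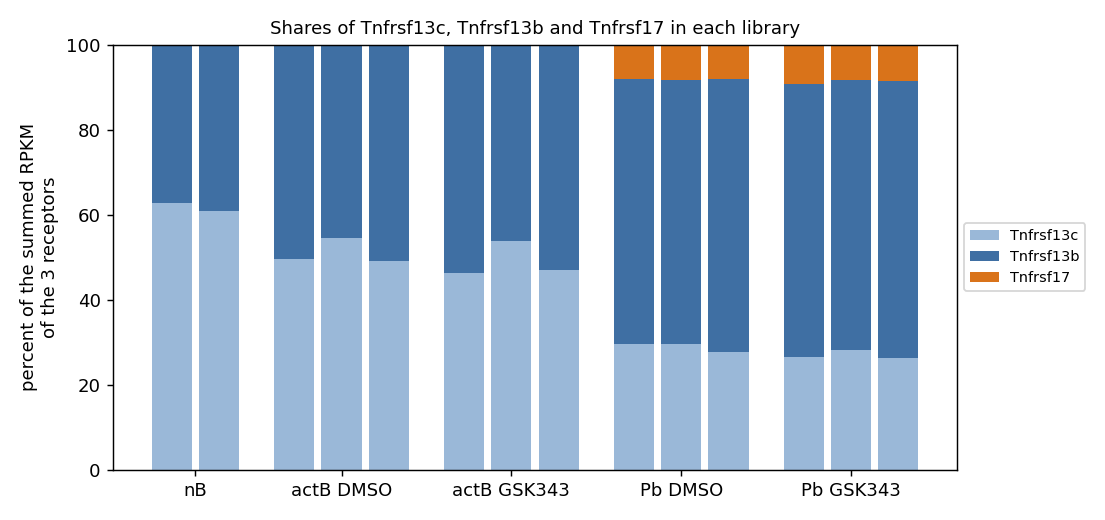
Percent of the summed RPKM (deposited lengths) of Tnfrsf13c, Tnfrsf13b and Tnfrsf17, stacked for each of the 14 libraries by group, from 0 to 100%. Tnfrsf13c covers 60.9 to 62.7% in nB and 27.7 to 29.6% in Pb with DMSO, and Tnfrsf17 is visible in Pb only.

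The ligand genes were near the limit of detection in these B lineage cells. Tnfsf13b (chromosome 8, 10006843 to 10035441, plus strand), which encodes BAFF, gave 12 and 8 reads in nB and 8, 3 and 14 reads in actB with DMSO. In Pb with DMSO it gave 17, 27 and 29 reads, or 0.235, 0.355 and 0.375 RPKM, and every Pb library was above every nB and actB library. By reads, Pb was 3.47-fold above actB (exact 95% interval 2.17 to 5.7, counting error only) and 2.76-fold above nB (1.67 to 4.78). In a fit without the filter on low values, the log2 fold change was 0.74 from actB to Pb (limma, adjusted p = 0.00428) and 0.63 from nB to Pb (adjusted p = 0.0151). Tnfsf13 (chromosome 11, 69496348 to 69499286, minus strand), which encodes APRIL, gave 8 and 6 reads in nB. It gave 0, 2 and 1 reads in actB with DMSO, and 4, 0 and 0 reads in Pb with DMSO, so Pb replicate 1 held every read of that group. A count of 0 allows up to 3 reads, or 0.154 RPM at the lowest depth here. The nB samples were above every cultured library, with the ratio of actB to nB at 0.137 (exact 95% interval 0.0252 to 0.489). The nB samples also held myeloid marker RNA, with 11 of 12 markers at or above 1 RPKM. Lyz2 was at 152 and 180 RPKM there, against at most 1.13 RPKM in any cultured library. Itgam and Ly6c2 went the other way. The mean of Itgam was 4.02 RPKM in nB and 9.95 RPKM in actB with GSK343. That of Ly6c2 was 23.7 RPKM in nB and 192 RPKM in Pb with DMSO. The part of myeloid or dendritic cell RNA in the nB reads of Tnfsf13 and Tnfsf13b was not tested. Tnfsf13 overlaps the protein-coding gene model BC096441 on the same strand over 983 exonic bases, so its reads are uncertain.

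Traf2 and Traf3 were lower in actB than in nB and lower again in Pb. Traf2 (chromosome 2, 25373502 to 25402460, minus strand) was at 22.6 and 21.5 RPKM in nB, at 16.4, 15.9 and 17.3 RPKM in actB with DMSO and at 11.8, 11.8 and 12.6 RPKM in Pb with DMSO. Its log2 fold change was -0.41 ± 0.062 (SE) from nB to actB (limma, adjusted p = 4.79e-05) and -0.44 ± 0.055 from actB to Pb (adjusted p = 1.33e-05). Traf3 (chromosome 12, 112404581 to 112505364, plus strand) was at 29.2 and 27.7 RPKM in nB, at 15.9, 15.7 and 17.1 RPKM in actB and at 12.8, 12.7 and 13.9 RPKM in Pb. It fell mainly before the Pb stage, with -0.80 ± 0.062 from nB to actB (adjusted p = 1.23e-07) and -0.30 ± 0.056 from actB to Pb (adjusted p = 3.62e-04). For both adaptors the 3 stages did not overlap.

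**Figure D3:**
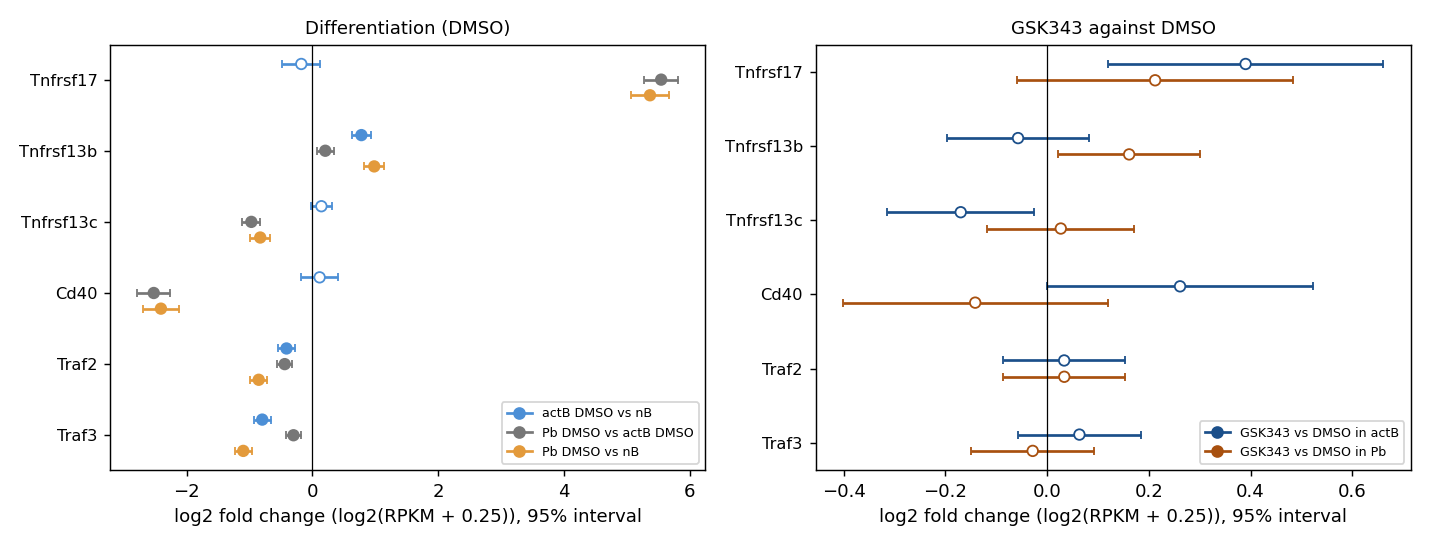
Log2 fold changes (x axis, on the log2(RPKM + 0.25) scale) with 95% intervals from limma for the 6 tested genes, between stages with DMSO (left) and for GSK343 against DMSO (right, with a narrower axis). Filled points have an adjusted p under 0.05: all stage differences except 3 of actB against nB are filled, and no GSK343 difference is.

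GSK343 changed none of the 6 tested genes past the threshold in actB, where 10.4% of all tested genes were called (8.2% higher, 2.16% lower), or in Pb, where 12.9% were called (7.9% higher, 5% lower). The effect in Pb minus that in actB passed for 0 of the 6, where 0.248% of all genes were called (0.0974% higher, 0.15% lower), with 2 at an unadjusted p under 0.05 by limma and 3 by edgeR. At an unadjusted p under 0.05, limma gave 3 of the 6 in actB and 1 in Pb, and edgeR on the recovered reads gave 1 in each, with 0 at the adjusted threshold. Groups without overlap and pairs that went one way are given below as descriptions, since their share over all genes is not given. The libraries carry numbers 1 to 3, and those of one number deviated together, so pairs of one number are also given. The counts above are from fits without that number. With the number as a block, Tnfrsf13b in Pb passed by limma (adjusted p = 0.0132) and by edgeR (0.0236). Tnfrsf13c in actB then passed by edgeR (0.00757).

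Cd40 was at 91.9, 110.0 and 94.7 RPKM in actB with GSK343, all above the 78.8 to 88.1 RPKM of actB with DMSO. The difference was 0.26 on the log2 scale (95% interval 0.00052 to 0.52, limma adjusted p = 0.199), and it was higher in 3 of 3 pairs. In Pb, Cd40 with GSK343 was at 10.9, 14.8 and 12.9 RPKM and overlapped the DMSO libraries, with a difference of -0.14 (95% interval -0.40 to 0.12, adjusted p = 0.508), higher in 1 of 3 pairs. Pair 2 was the one that went up, and without the number 2 libraries the difference in Pb was -0.36 (adjusted p = 0.0165, 2 libraries against 2). The effect in Pb minus that in actB was -0.40 (95% interval -0.77 to -0.03, adjusted p = 0.496), and -0.59 without number 2 (adjusted p = 0.0481).

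Tnfrsf13b in Pb was at 151.8, 149.6 and 159.8 RPKM with GSK343, above every Pb library with DMSO. The difference was 0.16 on the log2 scale (95% interval 0.02 to 0.30, limma adjusted p = 0.126), and it passed with the replicate number as a block (adjusted p = 0.0132, higher in 3 of 3 pairs). In actB, Tnfrsf13b with GSK343 was at 120.7, 104.4 and 119.5 RPKM and overlapped DMSO, with -0.06 (95% interval -0.20 to 0.08, adjusted p = 0.656). Tnfrsf17 in Pb with GSK343 was at 21.6, 19.5 and 20.9 RPKM, again above every Pb library with DMSO, and the difference of 0.21 (95% interval -0.06 to 0.48) did not pass (adjusted p = 0.309). By reads the ratio was 1.16 (exact 95% interval 1.06 to 1.27, counting error only). The 5 plasma cell markers did not move as one beside it. In Pb, the mean with GSK343 and with DMSO was 55.3 ± 3.09 and 29.7 ± 0.826 RPKM for Sdc1, and 313 ± 11.6 and 372 ± 17.0 RPKM for Irf4, a transcription factor of plasma cells (SD, n = 3 each). It was 117 ± 5.88 and 121 ± 4.96 RPKM for Prdm1, 1028 ± 38.3 and 956 ± 55.7 RPKM for Xbp1, and 1765 ± 89.6 and 1668 ± 30.5 RPKM for Jchain, and the libraries of these last 3 genes overlapped between treatments. Tnfrsf17 in actB with GSK343 was at 0.281, 0.350 and 0.158 RPKM, from 6, 7 and 3 reads, with a read ratio to DMSO of 1.93 (exact 95% interval 0.781 to 5.22). Its difference of 0.39 in the fit (adjusted p = 0.0673) passed without actB GSK343 replicate 3 (0.55, adjusted p = 0.0118), where it rested on 6 and 7 reads.

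Tnfrsf13c in actB with GSK343 was at 103.8, 122.7 and 105.7 RPKM, lower than DMSO in 3 of 3 pairs but with overlapping groups. The difference was -0.17 (95% interval -0.31 to -0.03, limma adjusted p = 0.130). It passed without actB GSK343 replicate 2 (-0.25, adjusted p = 0.0215), without all number 2 cultured libraries (-0.20, adjusted p = 0.0277) and in edgeR with the replicate block (-0.22, adjusted p = 0.00757). In Pb with GSK343 it was at 62.7, 66.0 and 64.4 RPKM, a difference of 0.03 (95% interval -0.12 to 0.17, adjusted p = 0.857). The adaptors had the narrowest intervals. Traf2 with GSK343 was at 16.5 to 17.6 RPKM in actB and 11.96 to 13.1 RPKM in Pb, and the 95% interval of its difference was -0.09 to 0.15 in either cell. Traf3 was at 16.3 to 17.8 and 12.45 to 13.2 RPKM, with intervals of -0.06 to 0.18 in actB and -0.15 to 0.09 in Pb. Tnfsf13b gave 16, 8 and 13 reads in actB and 29, 12 and 27 reads in Pb with GSK343, for ratios to DMSO of 1.43 (exact 95% interval 0.839 to 2.48) and 0.908 (0.643 to 1.28). Tnfsf13 gave 2, 2 and 1 reads and 3, 2 and 1 reads, too few to show a difference at this depth.

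The shares of the BAFF and APRIL receptors moved one way in all 3 numbered pairs of both cell types with GSK343, with Tnfrsf17 and Tnfrsf13b higher and Tnfrsf13c lower. In Pb, the mean share with GSK343 and with DMSO was 8.66% and 8.15% for Tnfrsf17, 64.4% and 62.9% for Tnfrsf13b, and 27% and 28.9% for Tnfrsf13c. In actB it was 0.116% and 0.0562% for Tnfrsf17, from 16 and 8 reads, 50.9% and 49% for Tnfrsf13b, and 49% and 51% for Tnfrsf13c. The 3 shares of a library sum to 100%, so they are not independent, and a share can rise where the level does not. In actB the level of Tnfrsf13b was lower with GSK343 in 3 of 3 pairs (-0.04, -0.10 and -0.04 on the log2 scale). That of Tnfrsf13c was lower by more (-0.23, -0.12 and -0.16). In Pb the level of Tnfrsf13c was higher in 2 of 3 pairs. Over the 6 comparisons of shares the exact two-sided permutation p ran from 0.1 to 0.5 (0.3 to 0.5 adjusted). With 3 libraries against 3 this test cannot go below 0.1, so it could not pass the threshold whatever the shares were, and nothing is concluded from it.

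Genes that act with these receptors were described from a list of 19 signalling genes, all of them tested. From nB to Pb with DMSO, 4 rose and 12 fell, where 80.6% of all genes were called, with a median log2 fold change of -0.66 against -0.02 over all genes. The largest falls were those of Map3k14 (NIK, the kinase that starts the alternative NF-κB pathway) from a mean of 21.0 to 2.98 RPKM, a log2 fold change of -2.72 ± 0.071 (SE), of Traf5 (another TRAF adaptor) with -2.00 ± 0.171, and of Nfkb2 (the p100 precursor that this pathway processes) from 65.7 to 16.8 RPKM, with -1.96 ± 0.082. The largest rises were smaller: Birc2 (cIAP1, a ubiquitin ligase of the TRAF2 and TRAF3 complex) with 0.60 ± 0.189, Traf4 with 0.30 ± 0.080 and Caml (a partner of TACI) with 0.23 ± 0.076. The limma adjusted p of these 6 genes was at most 0.0155. The rises depended on single libraries, as Birc2 and Caml lost the threshold without nB replicate 1 and Caml also without Pb DMSO replicate 1 (adjusted p up to 0.0542 and 0.205) and Traf4 without nB replicate 3 (0.0645). From nB to actB the counts were again 4 and 12, where 77.2% of all genes were called, and from actB to Pb 2 rose and 12 fell, where 69.7% were. With GSK343 in Pb, 5 of the 19 fell and 0 rose, where 5% of all genes fell. These were Traf5 from 6.19 to 3.29 RPKM (-0.86 ± 0.153), Traf3ip3 (-0.37 ± 0.085), Traf1 (-0.36 ± 0.107), Traf3ip2 (-0.29 ± 0.064) and Birc3, which encodes cIAP2 (-0.24 ± 0.042), with adjusted p of 0.0037 to 0.0465. Traf5 and Birc3 were called in all 20 refits, while Traf1 lost the threshold in 9, among them those without any one Pb DMSO library or without Pb GSK343 replicate 1 or 3 (adjusted p up to 0.159), and Traf3ip2 and Traf3ip3 in 2 each, Pb GSK343 replicate 3 left out being one of them for both (adjusted p up to 0.0589 and 0.0734). In actB, where 2.16% of all genes fell, Traf4 alone was called by limma, with -0.28 ± 0.071 (adjusted p = 0.0276). It was lost in 5 of 20 refits, 4 of which left out replicate 1 or 3 of either group (up to 0.107). Traf5 also tended lower in actB, at -0.52 ± 0.153 (limma adjusted p = 0.0524), and edgeR called it (-0.56, adjusted p = 0.0359). Whether the effect differed between Pb and actB passed for 0 of the 19 (3 at an unadjusted p under 0.05).

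Other receptors and ligands of the TNF family gave a wider range. Of 24 other receptors, 19 were tested, and from nB to Pb 3 rose and 10 fell, where 39.5% of all genes rose and 41.1% fell. Tnfrsf8 (CD30, an activation-induced receptor) rose from 0.136 to 9.92 RPKM (4.72 ± 0.191 SE) and Tnfrsf10b (a receptor of TRAIL) from 0.637 to 2.70 RPKM (1.73 ± 0.109). In nB, Tnfrsf8 was at most 0.163 RPKM and Tnfrsf10b at most 0.654 RPKM. Both therefore passed the filter only through the cultured groups, where they were high. Their rises are a description, and the count of rises includes them. Among receptors whose mean reached 2 RPKM in nB or Pb, the lowest log2 fold changes were those of Ngfr (the low-affinity neurotrophin receptor), Tnfrsf21 (the death receptor DR6) and Ltbr (the lymphotoxin beta receptor), with 3.69, 3.56 and 2.10 RPKM in nB and at most 0.187 RPKM in Pb with DMSO. These genes and Tnfrsf11a reached 1 RPKM in nB alone, so they passed the filter only through the group where they were high, with the nB library that is present as 2 columns counted as such. Their values are a description, and the part of the non-B cell marker RNA of nB in them was not tested. With GSK343, 3 of the 19 rose in actB, where 8.2% of all genes rose, and 2 in Pb, where 7.9% did. Tnfrsf8 rose in actB from 6.08 to 15.2 RPKM (1.26 ± 0.171, limma adjusted p = 9.96e-04) and in Pb from 9.92 to 15.5 RPKM (0.62 ± 0.171, adjusted p = 0.0318). Relt (0.58 ± 0.102) and Tnfrsf1b, the TNF receptor 2 gene (0.35 ± 0.085), also rose in actB, and Ltbr rose in Pb from 0.181 to 0.418 RPKM (0.62 ± 0.121). Of these, the rises of Tnfrsf8 and Relt in actB were called in every refit. The rise of Ltbr in Pb was called in the 19 refits that held it, with log2 fold changes from 0.262 to 1.19. Its level there was low, at most 0.526 RPKM with GSK343. Tnfrsf1b lost the threshold in 5 of 20 refits (replicate 1 or 3 of either actB group left out, or the compared groups alone, adjusted p up to 0.152). Tnfrsf8 in Pb lost it in 5 of 20 (without Pb DMSO replicate 1 or 3, without Pb GSK343 replicate 2 or 3, or without the filter, up to 0.109). By limma 0 of the 19 fell with GSK343 in either cell, where 2.16% of all genes fell in actB and 5% in Pb. Of 16 other ligands, 6 were tested. From nB to Pb the lymphotoxin genes Lta and Ltb fell, by -4.29 ± 0.406 and -4.17 ± 0.350, as did Tnf (-1.99 ± 0.243), and Tnfsf10, the TRAIL gene, rose from 1.94 to 4.68 RPKM (1.16 ± 0.189). Tnfsf10 rose further with GSK343 in Pb, to 7.22 RPKM (0.61 ± 0.169, adjusted p = 0.0334), but lost the threshold in 6 of 20 refits (without the filter, without Pb DMSO replicate 1 or 3 or without any one Pb GSK343 library, adjusted p up to 0.118).

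**Figure D4:**
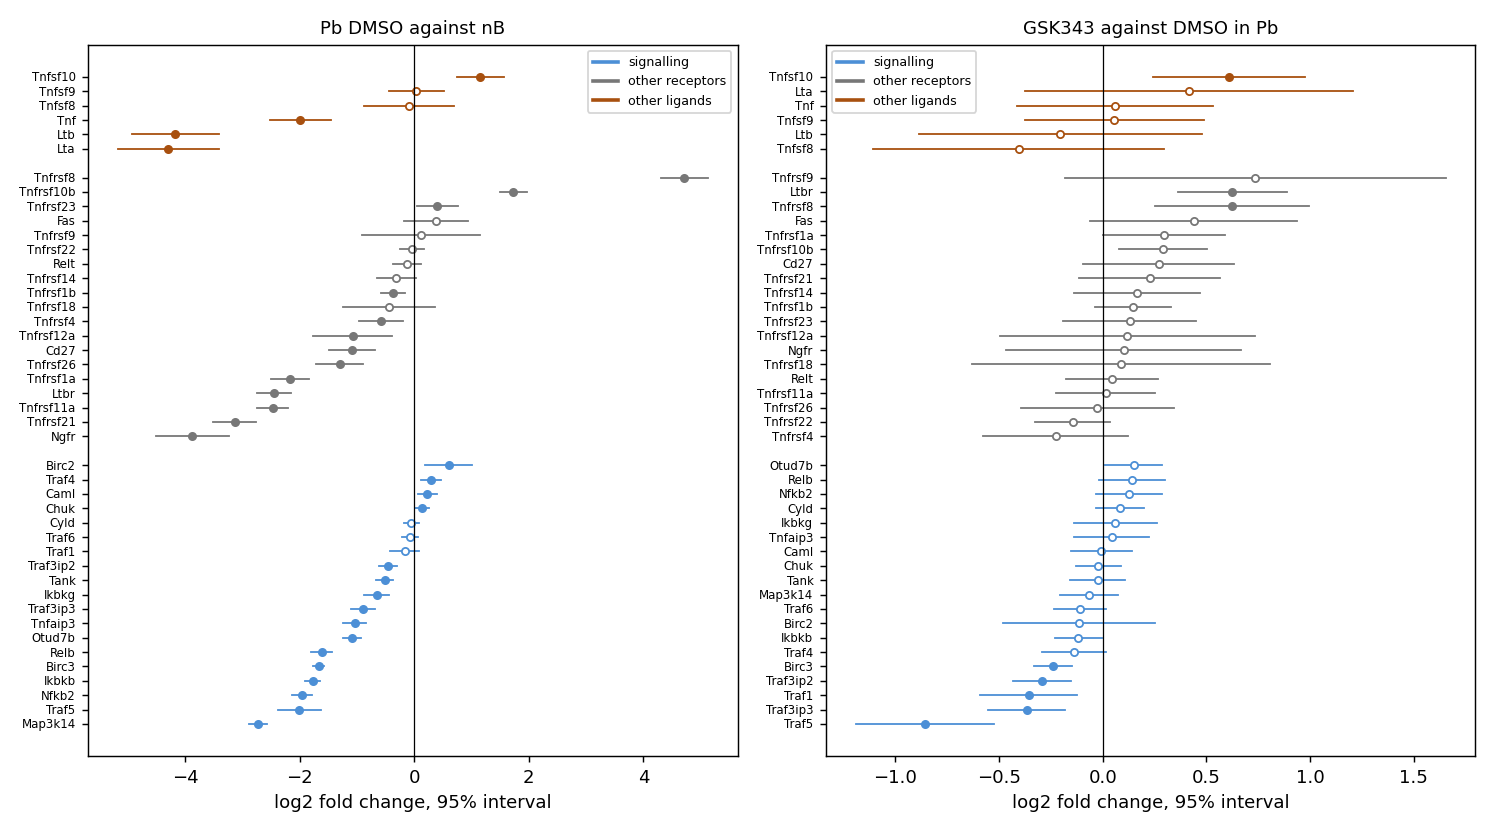
Log2 fold changes (x axis) with 95% intervals of the tested genes of the 3 other lists (y axis, ordered by value within a list), for Pb with DMSO against nB (left) and GSK343 against DMSO in Pb (right, narrower axis). Filled points have an adjusted p under 0.05; Map3k14 at -2.72 and Tnfrsf8 at 4.72 are among the extremes at left, and the 5 filled signalling genes at right all lie below 0.

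The genes whose log2 levels followed each receptor most closely over the 14 libraries were listed by Pearson's r, as a description, since these libraries form few groups and many genes had r above 0.9. For Tnfrsf17 these were Tmem181a (0.997), Atf6b (0.996) and Ubl5 (0.996), among 932 genes above 0.9. For Tnfrsf13b they were Fam98a (0.992), Atp5o (0.99) and Swi5 (0.989), among 835. Tnfrsf13c was followed most closely by Bcl2 (0.992), Sri (0.991) and Il12a (0.991), among 978 genes. Cd40 was followed by Ffar1 (0.995), Bcl7a (0.994) and Zeb2 (0.994), among 1100. Bcl2, which encodes an inhibitor of apoptosis, had means of 18.2 RPKM in nB, 23.8 RPKM in actB and 5.52 RPKM in Pb with DMSO.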

How the data were processed

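PolyA-selected stranded libraries were sequenced as paired ends, and the authors aligned reads to mm9 with TopHat2 and counted exon overlaps per Entrez gene. The use of strand in counting is not given in the sources used here. The authors deposited RPM values, under a name that says RPKM, and all 15 columns have the same sum of 1000000. Converted back, 100% of these RPM values were whole reads within 0.1 read. A total of 92 genes had no symbol. RPKM was computed with the deposited lengths.

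limma 3.58.1 (R 4.3.3, moderated with a trend, two-sided, Benjamini-Hochberg over the 11299 genes that reached 1 RPKM in 3 or more of the 15 columns, 9 residual degrees of freedom) was fitted to log2(RPKM + 0.25) over all groups, and edgeR 4.0.16 to the recovered reads as an alternative. Scripts were tested on simulated data. The study describes 3 biological replicates per cell type, and the p-values measure the spread between these libraries. Same-numbered cultured libraries deviated together (r 0.158 to 0.713 over 18 pairs, the numbers taken from the titles), so the block is printed where it changed a call. The exact intervals of read ratios cover counting error only. The intervals of log2 fold changes and of differences on the log2 scale are from limma and measure the spread between libraries. Coordinates are from GENCODE vM1 (mm9).

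The genes and lists were chosen with earlier results of these data known. The named genes were all 8, the 3 largest rises and falls per list (at least 2 RPKM in 1 group) from nB to Pb, every list gene called with GSK343, and the 3 genes most like each receptor. One B cell marker is not reported here.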

Additional observations from a re-analysis of the deposited data

Results flagged for a closer look

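The numbered pairs of Tnfrsf13b pointed in opposite directions in the sorted cell types: it was lower with GSK343 in 3 of 3 pairs of actB (-0.04, -0.10 and -0.04 on the log2 scale) and higher in 3 of 3 pairs of Pb (0.13, 0.20 and 0.15). In actB the groups overlapped and the direction was not set apart from 0 (-0.06, 95% interval -0.20 to 0.08, limma adjusted p = 0.656). Without actB GSK343 replicate 2 the actB difference was 0.0098. The effect in Pb minus that in actB was 0.22 (95% interval 0.02 to 0.42, unadjusted p = 0.0323 by limma across all genes), with an adjusted p of 0.482. Blocking by the number gave an adjusted p of 0.0810, and over all alternatives it ran from 0.0533 to 0.828. In the limma fit, 28 of 11299 genes (0.248%) passed this test of the difference.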

How the results depend on the processing

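The 15 called differences of single genes kept their direction in 273 refits, and 271 also kept the threshold; the 2 that did not were the Tnfrsf13b step from actB to Pb without actB DMSO replicate 2 or Pb DMSO replicate 3. For 17 differences under the threshold, 8 of 343 refits passed it and 11 changed sign. These 17 include the effect in Pb minus that in actB only for Tnfrsf13b and Cd40, whose unadjusted limma p was under 0.05. For the other tested genes that difference was left out of this count, so the count is not complete. The sign changes were, from nB to actB under quantile normalization, Tnfrsf17 (0.12), Tnfrsf13c (-0.0095) and Cd40 (-0.035), and, for GSK343 in actB, Traf2 with median scaling (-1.1e-05), with edgeR and RLE factors (-0.0016) and with edgeR and the replicate block (-0.012). For GSK343 in Pb without number 2, which was chosen after seeing the data, Tnfrsf13c was -0.0066 and Traf2 -0.023. With single libraries left out, Tnfrsf13b in actB ranged from -0.10 to 0.0098, Traf3 in Pb from -0.051 to 0.011 and Traf2 in Pb from -0.0084 to 0.065. The 27 named differences of other list genes kept their direction in all 492 refits and the threshold in 454. The causes were not tested.

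Of the 6 tested genes, 1 was called for GSK343 in actB with edgeR and the replicate block or without number 2 (0 to 1 without single libraries). In Pb, 1 was called with the block in limma or edgeR and without number 2, and for the difference between Pb and actB, 1 without number 2. The replicate block changed no other call of the 6 genes. Over all genes, GSK343 in actB gave 1170 calls, 386 with the compared groups alone, 2368 with the replicate block, 3005 with edgeR and the block, and 608 to 1363 without single libraries. GSK343 in Pb gave 1458 calls, 2740 with the replicate block, 3061 with edgeR and the block, and 690 to 1304 without single libraries. The difference between Pb and actB gave 28 calls, 18 under quantile normalization, 4 with the compared groups alone, 83 with the block, 293 with edgeR and the block, 48 with all 15 columns, 146 without number 2, and 0 to 58 without single libraries.

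The receptor shares moved with gene length. As shares of RPM, in the order nB, actB DMSO, actB GSK343, Pb DMSO and Pb GSK343, Tnfrsf17 was at 0.0314%, 0.0194%, 0.0405%, 3.76% and 4.12%, Tnfrsf13b at 14.3%, 20.7%, 22%, 35.7% and 37.7%, and Tnfrsf13c at 85.7%, 79.3%, 77.9%, 60.6% and 58.2%. With GENCODE exon lengths, an alternative also chosen after seeing the data, Tnfrsf17 was at 0.0817% in nB, 9.84% in Pb DMSO and 10.8% in Pb GSK343. Tnfrsf13b was then at 10.7%, 15.8%, 16.9%, 26.8% and 28.3%, and Tnfrsf13c at 89.2%, 84.2%, 83%, 63.3% and 60.9%. Depth limited the ligand genes and Tnfrsf17 outside Pb, which rested on at most 29 reads per library.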
